A study of Danio rerio with 6 samples.

Results

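The enzymes described here make and interconvert glutamine, glutamate and aspartate, the amino acids that bring nitrogen to the purine ring. They were taken by gene symbol from a list of 10 symbols, of which 7 are rows of the count table (glula, glulb, glsb, glud1b, got1, got2a and got2b) among 11016 rows in all. The symbols glula_1, glsa and glud1a were not analysed here. The expression filter of edgeR, which asks for about 6.06 CPM (counts scaled to a common library size) in 3 libraries, kept 6 of the 7 rows, and each of the 6 was above that level in all 6 libraries. The seventh, glulb, was above it in 1 library and is described by its counts.

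The libraries were bulk MARS-seq, in which poly(A) transcripts are tagged and counted at their 3' ends. The 3 iridophore libraries came from cells sorted for the red fluorescent signal of the pnp4a:PALM-mCherry transgene, driven by the promoter of a purine nucleoside phosphorylase gene, in larvae 5 days after fertilization. The 3 control libraries came from the general cell population of dissociated larvae, with about 20000 cells in each library of either kind. All larvae were labelled wild type and selected for the transgene, and the labels do not say whether fluorescent cells were kept out of the control. The protocol calls the 3 samples of each kind biological replicates.

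Glutamine synthetase joins ammonia to glutamate, and glutaminase releases it again in mitochondria. Glutamate dehydrogenase links glutamate to 2-oxoglutarate in mitochondria. The aspartate aminotransferases pass an amino group between glutamate and aspartate in either direction, with separate enzymes in the cytosol and in mitochondria. In purine synthesis glutamine donates nitrogen and leaves as glutamate, and aspartate donates nitrogen and leaves as fumarate. Iridophores, the reflecting pigment cells of fish, hold crystals made mainly of the purine guanine.

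Total counts were 616439 to 1686552 in the iridophore libraries, against 1612637 to 3282480 in the control libraries, so that 3 counts, taken as the floor, stood for 1.69 to 5.50 CPM in iridophores, against 0.897 to 1.79 CPM in the control. CPM were computed after TMM scaling (trimmed mean of M values). Of 11 iridophore marker genes, pnp4a included, 9 were tested and 9 were higher in iridophores, beside 22.1% of all tested genes. Their summed level was 9560 to 16040 CPM against 48.2 to 143 CPM in the control, and apoda.1 gave most of it (mean 8720 CPM in iridophores). The sort itself used the pnp4a promoter, and the list was chosen with earlier results known. These values therefore describe the sort and are no independent check of it. Across log2 CPM of all tested genes, libraries of 1 group correlated with Pearson coefficients of 0.890 to 0.936 among iridophore libraries, against 0.959 to 0.974 among control libraries. The values are shares of a library's RNA from a mixed or sorted population, so fewer cells of a type and less RNA per cell cannot be told apart.

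Of the 6 tested supply enzymes, 3 were lower in iridophores (got1, glud1b and got2a), 0 were higher and 3 did not pass (glsb, glula and got2b), by edgeR's quasi-likelihood test at a p adjusted by the Benjamini-Hochberg (BH) method under 0.05 over 6849 genes. Across all 6849 genes 39.9% were called, 17.8% lower and 22.1% higher, and with so few members the count is a description of these genes and no result about them as a set. At an unadjusted p under 0.05, 4 of the 6 were called, beside 3335 of all 6849 genes. The fourth was glsb, which was also lower. None of the 6 was called higher at that level, by DESeq2 or by limma-voom. The median log2 fold change, iridophore over control, was -1.26 for the 6 and 0.01 for all tested genes. All iridophore CPM lay under all control CPM for the same 3 enzymes and for 24.9% of all tested genes. The rows summed to 711, 665 and 732 CPM in iridophores and to 1529, 1590 and 1589 CPM in the control, a sum to which glud1b gave most of the counts.

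**Figure D1:**
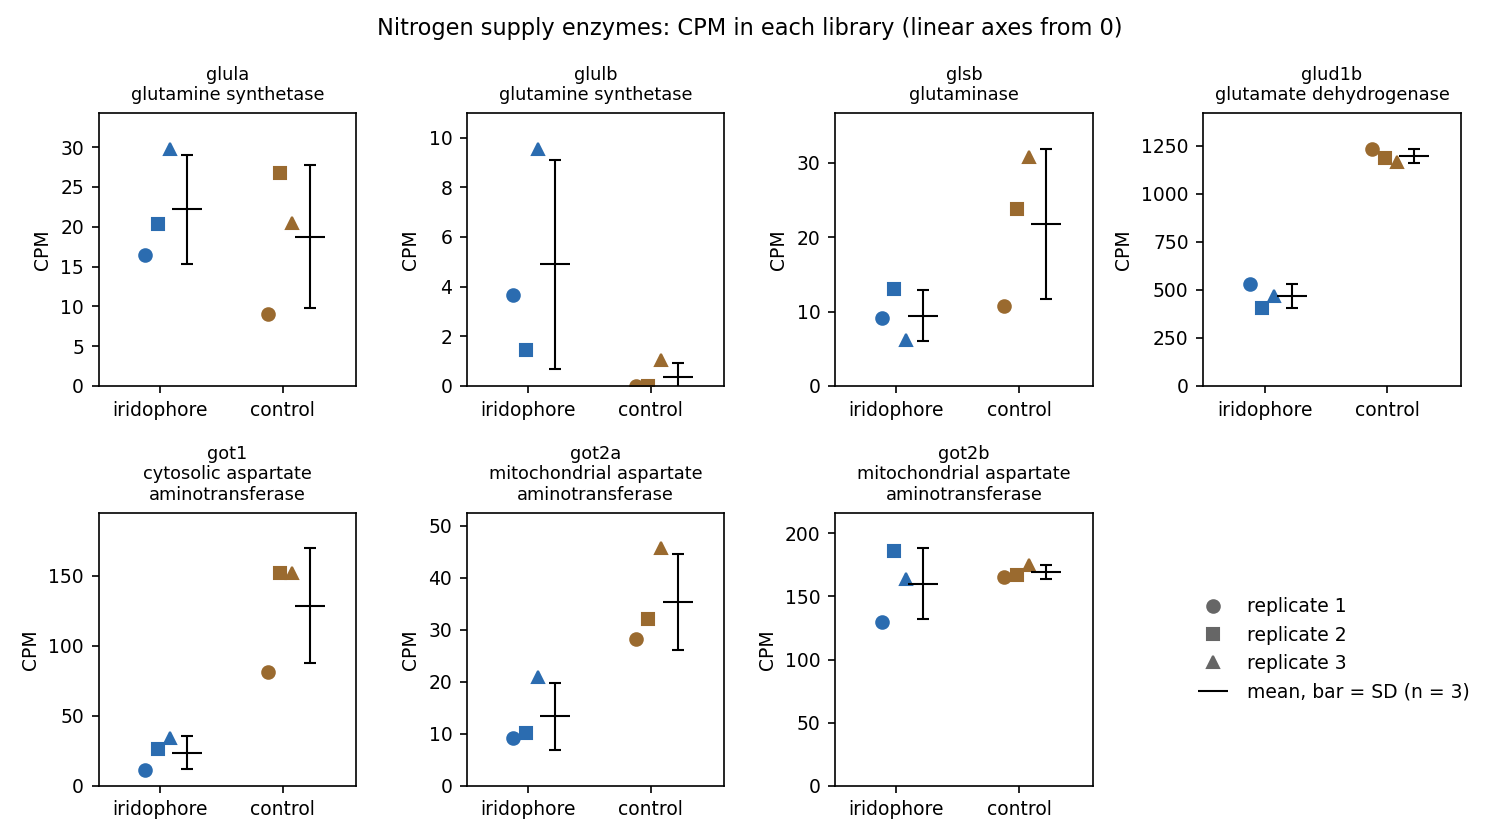
CPM of the 7 enzyme genes in each of the 3 iridophore (blue, left) and 3 control (brown, right) libraries, with the mean and SD of each group and a linear axis from 0 in each panel. The groups are apart for glud1b, got1 and got2a, with iridophores lower, and overlap for glula, glsb and got2b. For glulb all iridophore CPM lie above all control CPM, but on low counts that come mostly from iridophore replicate 3.

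The cytosolic aspartate aminotransferase gene got1, whose enzyme passes an amino group between glutamate and aspartate in either direction, was the most reduced of the 6. It had 10.99, 26.1 and 33.7 CPM in iridophore replicates 1, 2 and 3 (6, 18 and 60 counts), against 81.4, 152 and 152 CPM in control replicates 1, 2 and 3 (272, 256 and 297 counts). Every iridophore library lay under every control library, and in both groups replicate 1 was the lowest. The mean was 23.6 ± 11.6 CPM in iridophores, against 128.7 ± 41.0 CPM in the control (SD, n = 3 each). The log2 fold change was -2.34 (SE 0.38, approximate 95% interval -3.18 to -1.49, edgeR BH-adjusted p 0.000998), which is 19.8% of the control level. Of all tested genes 0.993% had a lower log2 fold change.

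Library names share 1 ending for replicate 1 of both groups and the start of another for replicates 2 and 3. Each full ending occurs in 1 library of each group, and the labels do not say what the ending means. Within replicates 2 and 3 alone got1 had a log2 fold change of -2.33 (edgeR BH-adjusted p 7.559e-06). With each of the 6 libraries left out in turn it lay between -2.78 and -2.08 and remained called. The tested genes whose log2 CPM followed got1 most closely over the 6 libraries were klf2b, irf7 and zgc:175280 (Pearson r 0.9965, 0.9957 and 0.9952). Such values over 6 libraries of 2 groups mainly repeat the difference between the groups, and they are given as a description.

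Glutamate dehydrogenase was measured with the most counts and the smallest error. The gene glud1b had 531, 408 and 468 CPM in iridophore replicates 1, 2 and 3 (290, 281 and 832 counts), against 1235, 1188 and 1164 CPM in the control (4128, 1995 and 2270 counts). The control libraries lay close together, and the highest iridophore library was under the lowest of them. The mean was 469 ± 61.6 CPM in iridophores, against 1195 ± 36.1 CPM in the control (SD, n = 3 each). A log2 fold change of -1.35 (SE 0.18, approximate 95% interval -1.76 to -0.94, edgeR BH-adjusted p 0.000342) corresponds to 39.2% of the control level. Within replicates 2 and 3 alone it was -1.45 (edgeR BH-adjusted p 2.636e-05), and 9.99% of tested genes had a lower log2 fold change. The paralog glud1a was not analysed here, so this is the measured part of the enzyme's transcripts and no sum over both genes.

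The mitochondrial aspartate aminotransferase is encoded by got2a and got2b, of which got2a was called lower and got2b was not called. The gene got2a had 9.16, 10.16 and 20.8 CPM in iridophore replicates 1, 2 and 3 (5, 7 and 37 counts), against 28.1, 32.1 and 45.6 CPM in the control (94, 54 and 89 counts). The groups did not overlap, though iridophore replicate 3 lay nearer to the lowest control library than to the other iridophore libraries. The log2 fold change was -1.24 (SE 0.36, edgeR BH-adjusted p 0.0205), or 42.4% of the control level, and -1.22 within replicates 2 and 3 alone (edgeR BH-adjusted p 0.0116). The call ended without iridophore replicate 2 (log2 fold change -1.07, edgeR BH-adjusted p 0.0707) and without control replicate 3 (-1.08, edgeR BH-adjusted p 0.0598), and without iridophore replicate 3 the value was -1.89 (edgeR BH-adjusted p 0.0113).

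In contrast, got2b had 130.1, 186 and 164 CPM in iridophore replicates 1, 2 and 3 (71, 128 and 292 counts), against 165, 167 and 175 CPM in the control (553, 281 and 342 counts). Iridophore libraries lay on both sides of the control range. The log2 fold change was -0.08 (SE 0.20, edgeR BH-adjusted p 0.790), with an approximate 95% interval of -0.53 to 0.38. Within replicates 2 and 3 alone it was -0.0018 (edgeR BH-adjusted p 0.995).

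The table also has a row got2a_1, outside the list, whose suffix is not explained in the sources used here and which may share reads with got2a. It had 10.99, 20.3 and 18.0 CPM in iridophores, against 38.9, 33.3 and 35.9 CPM in the control, again without overlap. The log2 fold change of this row was -1.09 (SE 0.28, edgeR BH-adjusted p 0.0113). With the rows of both genes summed, mitochondrial aspartate aminotransferase had 173 ± 30.5 CPM in iridophores, against 205 ± 14.5 CPM in the control (SD, n = 3 each), a log2 fold change of -0.24 (SE 0.21, edgeR BH-adjusted p 0.395). Adding got2a_1 to the sum, an addition made after the table was seen, gave -0.34 (edgeR BH-adjusted p 0.220). The summed level is mostly got2b, and neither sum passed the test.

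**Figure D2:**
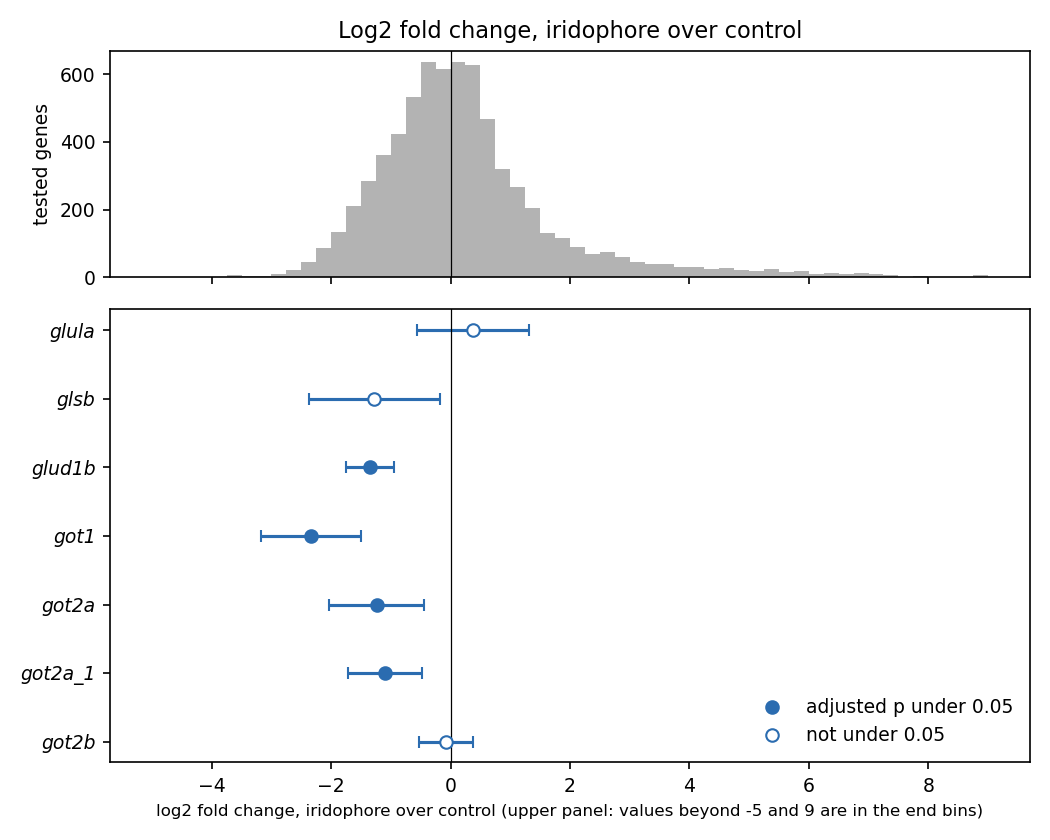
Log2 fold change, iridophore over control, with approximate 95% intervals for the 6 tested enzyme genes and got2a_1 (lower panel), under a histogram of the log2 fold changes of all 6849 tested genes (upper panel, values beyond the axis in the end bins). The intervals of glud1b, got1, got2a and got2a_1 lie under 0, that of glsb ends at -0.18 and its adjusted p misses the threshold, and those of glula and got2b hold 0.

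Whether paralogs moved apart was tested on the ratio of their counts inside each library, which needs no scaling between libraries. The log2 ratio of got2a to got2b, with 0.5 added to each count, was -3.70, -4.10 and -2.96 in iridophore replicates 1, 2 and 3, against -2.55, -2.37 and -1.94 in the control. All iridophore ratios were under all control ratios. The difference of means was -1.30, and the two-sided exact permutation p was 0.1, the smallest that 3 libraries against 3 allow (0.1 after Benjamini-Hochberg adjustment over the 3 ratios computed, of which that of glula to glulb is given with glutamine synthetase as a share because counts of 0 leave it no value of its own). Of the counts of the pair, got2a held 9.07% in iridophores and 16.8% in the control.

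The ratio of got1 to got2b, set up after the values were seen, compares the cytosolic with the better measured mitochondrial gene. It was -3.46, -2.80 and -2.27 in iridophores and -1.02, -0.13 and -0.20 in the control on the log2 scale. The groups were again apart, with a difference of means of -2.39 and the same exact permutation p of 0.1. Because both genes are read in the same library, this difference holds whatever scaling factor is used.

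**Figure D3:**
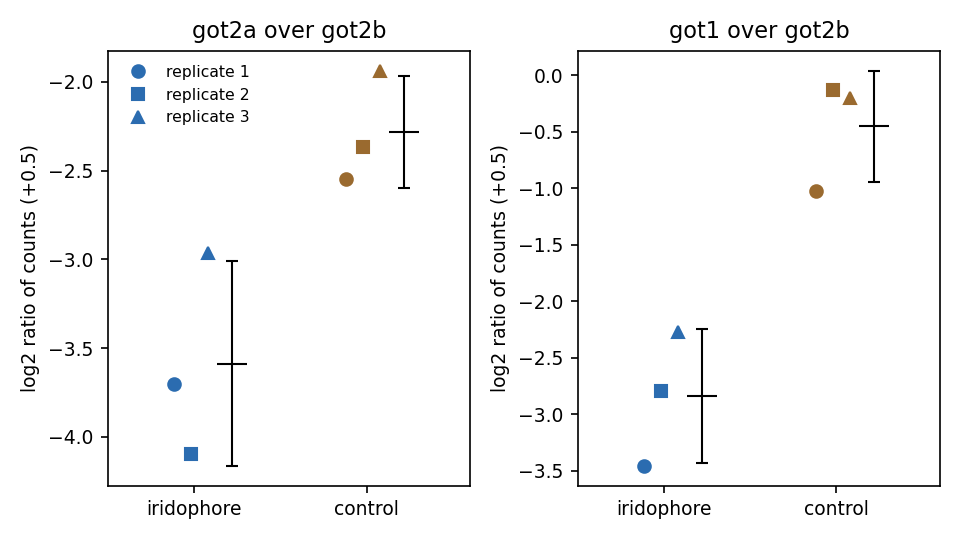
Log2 ratio of counts (0.5 added) between enzyme genes within each library, for got2a over got2b and got1 over got2b, with iridophores left and control right and the mean and SD of 3 libraries. In both panels all iridophore ratios lie under all control ratios; the axes do not start at 0 because ratios are plotted.

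Glutaminase, read here from glsb alone, had 9.16, 13.1 and 6.19 CPM in iridophore replicates 1, 2 and 3 (5, 9 and 11 counts), against 10.8, 23.8 and 30.8 CPM in the control (36, 40 and 60 counts). Iridophore replicate 2 lay above control replicate 1, so the groups overlapped. Its fitted log2 fold change of -1.27 (SE 0.49, approximate 95% interval -2.37 to -0.18) did not pass the test (edgeR BH-adjusted p 0.0621). Within replicates 2 and 3 alone it was -1.71 and was called (edgeR BH-adjusted p 0.00498), as it was without control replicate 1 (-1.68, edgeR BH-adjusted p 0.00899). It was also called with the library-name ending or the replicate number as a term, with upper-quartile factors, with library size alone and without the expression filter (edgeR BH-adjusted p 0.0143 to 0.0477). It was not called by DESeq2 or limma-voom (BH-adjusted p 0.0652 and 0.117), nor when any library but control replicate 1 was left out. The value moved nearest to 0 without iridophore replicate 3 (-0.95, edgeR BH-adjusted p 0.250) and without control replicate 3 (-0.97, edgeR BH-adjusted p 0.174). The table's rows for the other glutaminase family, gls2a and gls2b, did not add a call: gls2a had at most 6 counts in any library and gls2b had a log2 fold change of -0.24 (edgeR BH-adjusted p 0.631).

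Glutamine synthetase showed no called change in its better measured gene and a low, uneven signal in the other. The gene glula had 16.5, 20.3 and 29.8 CPM in iridophore replicates 1, 2 and 3 (9, 14 and 53 counts), against 8.97, 26.8 and 20.5 CPM in the control (30, 45 and 40 counts). The groups overlapped, and control replicate 1 was the lowest of the 6 libraries. For glula the log2 fold change was 0.37 (SE 0.42, approximate 95% interval -0.57 to 1.31, edgeR BH-adjusted p 0.514). It was -0.0011 without iridophore replicate 3 and -0.05 without control replicate 1.

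The paralog glulb had 2, 1 and 17 counts in iridophore replicates 1, 2 and 3, against 0, 0 and 2 counts in the control. Only iridophore replicate 3 stood above the floor of 3 counts, and it held 85.0% of the gene's 20 iridophore counts. Pooled over libraries, 20 counts of 3052790 in iridophores and 2 counts of 6814568 in the control give a ratio of 22.3, with an exact 95% interval of 5.42 to 197.0 that covers counting error only and not the spread between replicates. Without the expression filter the gene was tested and called higher (log2 fold change 3.92, edgeR BH-adjusted p 0.0140). With iridophore replicate 3 also left out, a setting added after the values were seen, it was not called (2.62, edgeR BH-adjusted p 0.284), and the pooled ratio was 7.48 from 3 counts against 2, with an exact 95% interval of 0.857 to 89.6. Of the counts of both genes glulb held 18.2%, 6.67% and 24.3% in iridophore replicates 1, 2 and 3 (11, 15 and 70 counts). In control replicate 3 it held 4.76% of 42 counts, and its count of 0 in control replicates 1 and 2 allows a share of up to 10% and 6.67% (of 30 and 45 counts). At this depth the shares of the groups cannot be set apart library by library, and no test of them is given. Summed over both genes, glutamine synthetase had 27.1 ± 10.7 CPM in iridophores, against 19.1 ± 9.16 CPM in the control (SD, n = 3 each), a log2 fold change of 0.64 (SE 0.43, edgeR BH-adjusted p 0.269). A further row, glulc, was outside the list and had counts in 1 control library alone.

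Summed by enzyme, the transcript counts of 2 of the 5 enzymes were called, both lower in iridophores. They were those of cytosolic aspartate aminotransferase and glutamate dehydrogenase, each measured through 1 gene. In the fit by gene 39.9% of all tested genes were called, 17.8% lower. The count is therefore a description and no result about the enzymes as a set. Glutamine synthetase, glutaminase and mitochondrial aspartate aminotransferase were not called.

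**Figure D4:**
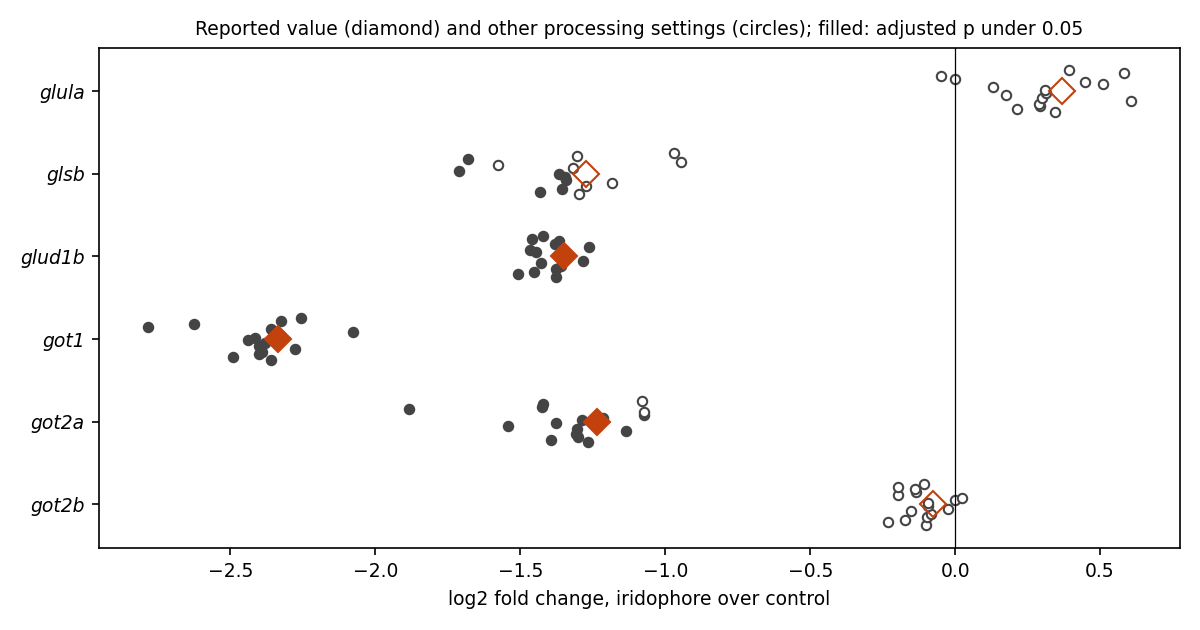
Log2 fold change of the 6 tested enzyme genes as reported (diamonds) and under each other processing setting (circles), filled where the adjusted p was under 0.05. The values of glud1b and got1 are filled throughout, those of glula and got2b are open throughout and lie on both sides of 0, and glsb and got2a hold both kinds.

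The genes that use the products of these enzymes were taken from lists drawn up for this comparison with earlier results of the data known. All 6 tested genes of the list of 10 glutamine users were called, 3 higher and 3 lower, with a median log2 fold change of 0.68 against 0.01 for all tested genes. These counts and those of the lists that follow stand beside 39.9% called, 22.1% higher and 17.8% lower, among all tested genes, and none is a result about a list as a set. The 3 higher genes carry nitrogen into purines: ppat, the first committed step of purine synthesis (2.26, SE 0.26, edgeR BH-adjusted p 0.000131), pfas, a later glutamine-using step (3.17, SE 0.49, edgeR BH-adjusted p 0.000802), and gmps, which makes guanylate with glutamine (3.93, SE 0.28, edgeR BH-adjusted p 6.52e-06). The level of ppat was 45.8, 66.8 and 71.4 CPM in iridophores, against 12.6, 13.7 and 12.8 CPM in the control. For pfas the control counts were 7, 1 and 2, and leaving out control replicate 1 gave a log2 fold change of 3.81. The 3 lower genes serve other products: cad, which starts pyrimidine synthesis (-1.63, SE 0.27, edgeR BH-adjusted p 0.00128), ctps1a, which makes cytidine triphosphate (-0.89, edgeR BH-adjusted p 0.0406), and asns, which makes asparagine (-0.94, edgeR BH-adjusted p 0.0437). The call of ctps1a ended without any of the 6 libraries (edgeR BH-adjusted p 0.0508 to 0.0861), and that of asns without any library but iridophore replicate 3 (edgeR BH-adjusted p 0.0520 to 0.118), whose omission gave -1.54. Neither was called by DESeq2 (BH-adjusted p 0.0803 and 0.0708) or limma-voom (BH-adjusted p 0.0552 and 0.0619), which left cad as the one lower gene of the list. A row outside the list, nadsyn1_1, was named after its value was seen. It carries the symbol of a glutamine-using enzyme of NAD synthesis with an unexplained suffix and was lower (-1.45, edgeR BH-adjusted p 0.0205). Its call ended without iridophore replicate 2, iridophore replicate 3 or control replicate 1 (edgeR BH-adjusted p 0.0656 to 0.0740).

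Of 16 genes that use aspartate or take part in the malate-aspartate shuttle, which moves reducing equivalents into mitochondria with the aminotransferases, 8 were tested, with 5 higher, 2 lower and a median log2 fold change of 0.78. The higher genes included paics, whose enzyme adds aspartate to the growing purine (3.83, SE 0.20, edgeR BH-adjusted p 3.298e-06), and ass1 and asl, which in arginine synthesis take up aspartate and release fumarate (2.11, SE 0.39, edgeR BH-adjusted p 0.00205, and 1.55, SE 0.37, edgeR BH-adjusted p 0.00786). The gene ass1 had 51.3, 58.1 and 25.9 CPM in iridophores, against 6.88, 13.1 and 10.8 CPM in the control. The adenylosuccinate synthetase gene adssl1, whose enzyme joins aspartate to inosinate, was higher by 0.92 (edgeR BH-adjusted p 0.0369). That call was lost in DESeq2 (BH-adjusted p 0.0582), with upper-quartile factors, with library size alone, without the filter and after thinning (edgeR BH-adjusted p 0.0542 to 0.137). The table's other row for that enzyme, adssl, stood outside the list and was not called (-0.74, edgeR BH-adjusted p 0.152), on counts of 8, 3 and 18 in iridophores, against 61, 22 and 32 in the control. Calls of asl ended without iridophore replicate 3 (edgeR BH-adjusted p 0.0857) and those of adssl1 without any library but iridophore replicate 1 (edgeR BH-adjusted p 0.0518 to 0.268). The row adsl, for the enzyme that releases fumarate in purine synthesis, had at most 6 counts in a library and was not tested. A row adsl_1, outside the list and with a suffix not explained in the sources used here, held most of the signal of that symbol. It had 222, 296 and 315.5 CPM in iridophores, against 38.9, 35.7 and 36.9 CPM in the control. The groups were far apart (log2 fold change 2.90, SE 0.22, edgeR BH-adjusted p 9.993e-06). The rows adssl and adsl_1 were named after their values were seen.

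Among the shuttle partners the cytosolic malate dehydrogenase gene was called higher and the mitochondrial one lower. Cytosolic malate dehydrogenase, mdh1aa, had 3541, 4103 and 3093 CPM in iridophores, against 2609, 2097 and 2202 CPM in the control (log2 fold change 0.64, SE 0.18, edgeR BH-adjusted p 0.0194). Mitochondrial malate dehydrogenase, mdh2, had 809.7, 820.3 and 647 CPM in iridophores, against 1186, 1112 and 1226 CPM in the control (-0.63, SE 0.18, edgeR BH-adjusted p 0.0189). The mitochondrial carrier of malate and 2-oxoglutarate, slc25a11, was lower (-0.94, SE 0.22, edgeR BH-adjusted p 0.00710), and the aspartate-glutamate carrier slc25a12 was not called (0.27, edgeR BH-adjusted p 0.504). The call of mdh1aa ended without iridophore replicate 2 or control replicates 2 or 3 (edgeR BH-adjusted p 0.0800 to 0.175) and that of mdh2 without control replicate 3 (edgeR BH-adjusted p 0.0664). With upper-quartile factors mdh1aa was not called either (edgeR BH-adjusted p 0.0567).

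Of 24 other enzymes that make or use glutamate, 12 were tested, with 1 higher, 3 lower and a median log2 fold change of -0.27. The one higher gene was psat1, the serine-synthesis aminotransferase that takes its amino group from glutamate (4.61, SE 0.29, edgeR BH-adjusted p 4.435e-06), at 549.5, 685 and 561 CPM in iridophores, against 21.5, 17.3 and 34.4 CPM in the control. The lower genes were abat, which breaks down the glutamate product GABA (-1.44, SE 0.25, edgeR BH-adjusted p 0.00155), and gclc and gclm, the catalytic and modifier subunits of the enzyme that starts glutathione synthesis from glutamate (-1.39, edgeR BH-adjusted p 0.00405, and -1.18, edgeR BH-adjusted p 0.0100). The other 8 did not pass.

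Of 23 carriers of glutamine, glutamate and aspartate or of close relatives, 7 were tested, with 2 higher, 2 lower and a median log2 fold change of -0.28. The gene slc38a5b, whose mammalian counterpart carries glutamine across the plasma membrane, had 64.1, 292 and 231 CPM in iridophore replicates 1, 2 and 3, against 0.299, 25 and 8.72 CPM in the control. The groups did not overlap but varied widely, and the log2 fold change of 4.26 (SE 0.90, edgeR BH-adjusted p 0.00437) became 3.52 when control replicate 1 was left out and 5.52 when control replicate 2 was. The neutral amino acid carrier slc38a4 was higher by 0.87 (edgeR BH-adjusted p 0.0224). The glutamate and aspartate carrier slc1a1 was lower (-2.38, SE 0.51, edgeR BH-adjusted p 0.00495) on counts of 3, 0 and 8 in iridophores, against 72, 30 and 33 in the control. Its relative slc1a4, a carrier of small neutral amino acids in mammals, was lower by the fit as well (-2.05, edgeR BH-adjusted p 0.0374). The call of slc38a4 ended without iridophore replicate 3 or control replicates 1 or 2 (edgeR BH-adjusted p 0.0933 to 0.124), and that of slc1a4 without any library but control replicate 1 (edgeR BH-adjusted p 0.0548 to 0.100) and by limma-voom (BH-adjusted p 0.104). Without iridophore replicate 3 slc1a4 stood at -3.02.

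**Figure D5:**
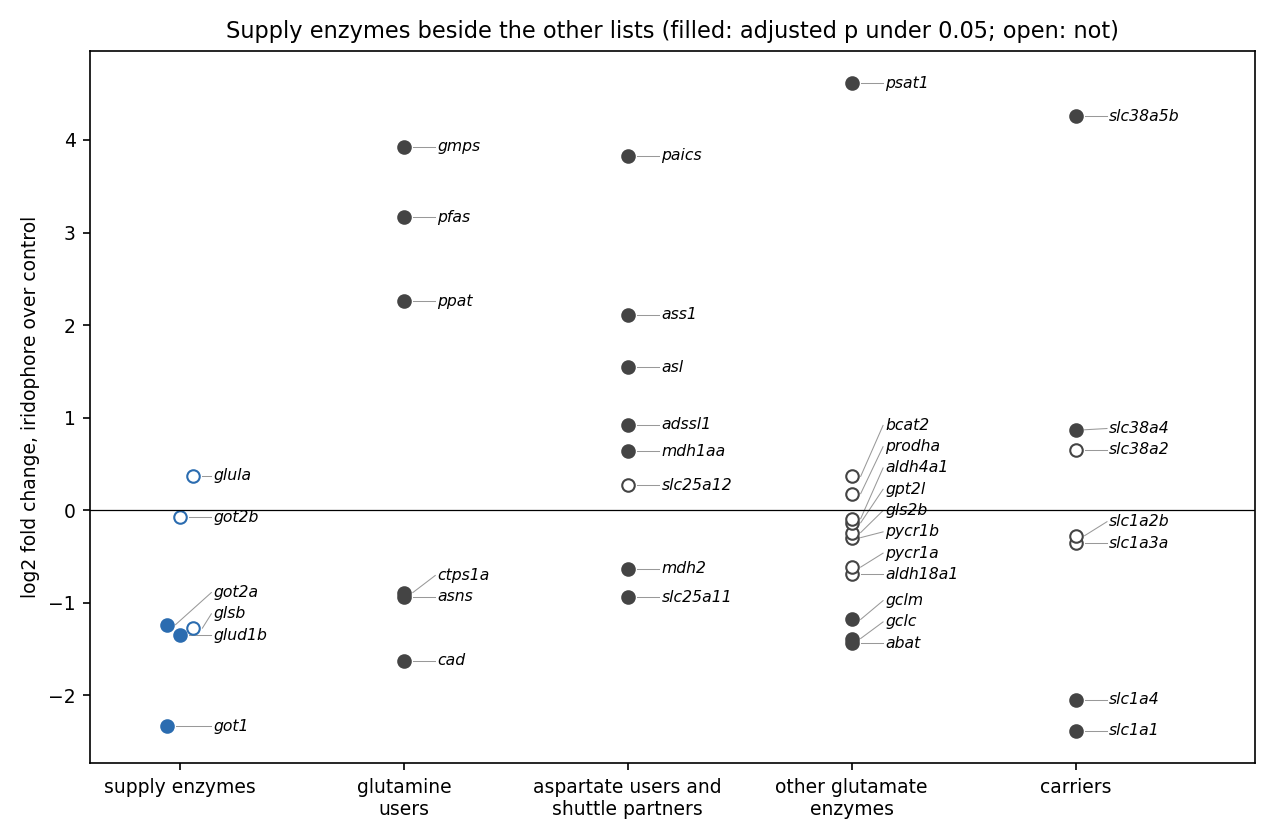
Log2 fold change, iridophore over control, of each tested supply enzyme (blue, points offset sideways for legibility) and of each tested gene in the 4 lists of users, partners and carriers (grey), filled where the adjusted p was under 0.05. The supply enzymes lie between -2.34 and 0.37. The purine-synthesis genes ppat, pfas, gmps and paics lie between 2.26 and 3.93, and adssl1, which also serves purine synthesis, lies at 0.92. Other genes of the same user lists lie lower than those 4, with ctps1a at -0.89, asns at -0.94 and cad at -1.63.

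Other cell types may differ in how much of these enzymes they carry, which was not measured here. Their markers were read beside the results, against the same 22.1% of all tested genes called higher and 17.8% called lower. Of 8 tested liver genes 2 were lower in iridophores (tfa and serpina1) and 0 were higher, with a median log2 fold change of -0.99. The 6 not called ran from -1.25 (fga, edgeR BH-adjusted p 0.0911) to 0.03 (apoa2, edgeR BH-adjusted p 0.945). Among them fabp10a stood at -0.04 (edgeR BH-adjusted p 0.958). The summed list level was 397.5 to 937.9 CPM in iridophores and 635 to 948 CPM in the control, and apoa2 and fabp10a were large parts of it. Of 13 tested skeletal muscle genes 10 were higher and 0 were lower, with 20460 to 23360 CPM against 10040 to 12390 CPM in the control. Of 5 tested glial genes 2 were higher (cx43 and fabp7a) and 0 were lower, with a median log2 fold change of -0.28. The summed level was 132 to 223 CPM against 36.5 to 74.9 CPM, and cx43 and fabp7a gave most of it in iridophores (means of 98.4 and 45.3 CPM). The 3 not called pointed lower: gfap (-0.39, edgeR BH-adjusted p 0.457), mbpa (-0.35, edgeR BH-adjusted p 0.638) and slc1a2b (-0.28, edgeR BH-adjusted p 0.643). Of 5 epidermal, 6 neuronal and 5 photoreceptor genes tested, 0 were called. An unadjusted p under 0.05, which 3335 of all 6849 genes had, was found for 0 of these genes as well. Their summed levels were 2522 to 3700 CPM, 91.6 to 100.2 CPM and 243.5 to 411 CPM in iridophores, against 3014 to 4536 CPM, 58.0 to 142 CPM and 231 to 330.2 CPM in the control. Of 4 melanophore genes 2 were higher (dct and trpm1b) and 0 lower, with 223.5 to 429.8 CPM against 62.2 to 256 CPM. To this sum trpm1b gave a mean of 205.8 CPM in iridophores, against 5.08 CPM in the control. The melanophore genes tyrp1b (-1.37, edgeR BH-adjusted p 0.0562) and pmela (-0.65, edgeR BH-adjusted p 0.307) pointed lower and were not called. No gene present from these lists was at 0 in all 3 iridophore libraries, and the part of other cells in the values of the supply enzymes was not tested.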

How the data were processed

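The authors deposited 1 table of raw counts per gene symbol for 6 libraries, with no normalization. Per the submitters' processing notes, cutadapt, STAR 2.5.2b, HTSeq, DESeq2 1.36.1 and the build danRer11 were used; the use of molecular identifiers, of strand and the filter on genes are not given in the sources used here. With 3'-end counting, near-identical copies and rows with suffixed symbols may share or lose reads.

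Groups and replicate numbers came from the sample titles, and columns were matched through the sample descriptions. All 7 member symbols matched RefSeq symbols; coordinates and sequences were not used here. Counts were fitted with edgeR 4.0.16 in R 4.3.3 over the whole table: default expression filter (minimum count 10, minimum total 15), which left 6849 genes with 98.7% of all counts, TMM scaling and the quasi-likelihood F test on a model of group alone, with Benjamini-Hochberg adjustment over all 6849 genes. Standard errors were derived from the fold change and its F value, and the intervals built on them are approximate. Paralog ratios were tested by exact permutation of the libraries, two-sided. Intervals and floors on counts cover counting error only. The pipeline was tested on simulated data.

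Alternatives were other scaling factors, DESeq2 1.42.0, limma-voom 3.58.1, no filter, thinning to 616439 counts, the replicate number or library-name ending as a term, replicates 2 and 3 alone, and each library left out. Every member was described; of the other lists, called genes were named (at most 6 a list) plus tested purine-synthesis genes. The members and lists were chosen with earlier results of these data known.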

Additional observations from a re-analysis of the deposited data

How the results depend on the processing

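Over the 6 tested enzymes and up to 16 other settings each, 83 of 95 values kept their direction and their side of the threshold, 2 lost the call (got2a), 7 gained one (glsb) and 3 changed sign, all of genes that were not called: glula at -0.0011 without iridophore replicate 3 and -0.0491 without control replicate 1, and got2b at 0.0249 without iridophore replicate 1. The count of members called lower was 3 and ranged over 2 to 4, that of members called higher was 0 and became 1 (glulb) without the filter, and that of enzyme sums called was 2 or 3. glulb could be fitted only without the filter. Thinning, which left 4130 genes and no test of glsb, called 960 genes higher and 763 lower, against 1513 and 1217. Upper-quartile factors moved the median of all genes by -0.15, which is more than the log2 fold change of got2b. The other alternatives moved it by less than 0.1. Leaving out 1 library gave log2 fold changes of -0.0491 to 0.584 for glula and -0.198 to 0.0249 for got2b. It gave differences of mean log2 ratio of -3.95 to -2.70 for glula to glulb, -1.61 to -1.05 for got2a to got2b and -2.67 to -2.08 for got1 to got2b. For glula to glulb the ratios in control replicates 1 and 2 are set by the 0.5 added to counts of 0. 

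Replicate numbers were not shown to pair the samples: deviations from the group means correlated at 0.315, 0.071 and 0.175 for replicates 1, 2 and 3, and iridophore replicate 2 correlated more with control replicate 3 (0.119). Replicate 1 of either group correlated at -0.241 to -0.152 with replicates 2 and 3 of the other group. Across the groups replicates 2 and 3 correlated at 0.071 to 0.175. Deviations from a group mean sum to 0 within the group, so these values are not independent. A positive value between the replicates 1 forces negative values elsewhere. The negative values are therefore no separate sign of a split by library-name ending. Such a split was not tested, and the reported model does not hold the ending as a term. With that term 1674 genes were called higher and 1467 lower, against 1513 and 1217 in the reported model. With the replicate block 4 members were called lower (glsb in addition), 0 higher, and 3 enzyme sums were called. Depth limits glulb, glsb and got2a, which had 17, 11 and 37 counts or fewer in every iridophore library. It also limits got1 and glula, with 6, 18 and 60 and with 9, 14 and 53 counts in iridophore replicates 1, 2 and 3.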
